A study of Mus musculus with 5 samples.

Results

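CD8+ T cells recovered from melanomas of mice that had received a control antibody were described through the 3 Control IgG libraries of a series of 5 samples. Membership followed the treatment label alone, and all 23337 gene symbols listed in each library were read. Per the labels, the cells came from C57BL/6J OT-I donors that carried the CD45.1 allele and were 6 to 12 weeks old. OT-I cells bear a transgenic T cell receptor specific for an ovalbumin peptide shown by the class I molecule H-2Kb. They were activated with anti-CD3 and anti-CD28 at 1 µg/mL, taken off the coated plate on day 2 and kept in 10 U/ml IL-2 until day 5 or 6. Between 2000000 and 4500000 cells were injected intravenously into mice with B16-OVA tumors, an ovalbumin-making melanoma line, once these measured 0.25 to 0.4 cm. The control antibody was a rat IgG2b against KLH, a limpet protein that mice do not make, of which each mouse received 200 µg on day 3 and again on day 6 after the cells. Mice were killed on day 8, or earlier at a tumor size of 1.2 cm. The recipients' strain and age were not given in the sources used here. The activation in culture, the transfer and the tumor model were common to every sample of the series.

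Tumor suspensions of several mice were pooled for each library, and live cells positive for CD8 and CD45.1 were sorted. From 5000 to 30000 cells per library, poly(A) RNA was turned into full-length cDNA with a variant of Smart-seq2 (8 amplification cycles) and tagmented (12 more cycles). The labels list PD-1 and Tim-3 among the stained proteins without giving them as gates. The mice and days behind each pool are not stated, so the spread given here is that between pools. Because the libraries form a single group, no test between groups was made and all values are descriptive. Where a list's widest range or 2-fold differences are named, they concern members at a mean of 10 CPM or more. In such bulk RNA, fewer cells of a type and less RNA per cell cannot be told apart.

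CD8 T cells recognise peptides on class I molecules through the T cell receptor and its CD3 subunits, and kill targets by releasing perforin and granzymes. Continued antigen contact, as in tumors, is known to keep inhibitory receptors such as PD-1, LAG-3 and TIM-3 on their surface, a state called exhaustion. The factor TCF-1, encoded by Tcf7, marks cells that retain the capacity to divide, and TOX accompanies the exhausted state.

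Gene counts summed to 12395682, 9985943 and 12318948 in replicates 1, 2 and 3, the order used for all values below. For a single gene across libraries the level is given in CPM, its share of the gene counts scaled to 1000000, and a floor of 3 counts equals 0.242, 0.300 and 0.244 CPM. Between genes it is given as TPM, which divides counts by exon length and scales each library to the same sum of 1000000. More than 3 counts in every library were found for 10544 genes, 45.2% of those listed, and 8693 genes, 37.2%, had none in any library. Genes above the floor had a median of 16.6 TPM. A mean of 100 TPM or more was reached by 1572 of 22838 genes with a length, 6.88%, and a mean of 10 CPM or more by 7863 genes, 33.7%. The 10 genes of highest count held 11.5%, 10.7% and 10.5% of the counts. They include Rn45s, the ribosomal RNA precursor, whose share is given below.

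Replicate 1 stood apart from the other libraries. It had 10897 genes above the floor, against 12223 and 12148, and the order of replicates 1 and 2 was the same after every library was thinned to 9985943 counts (10783, 12223 and 11916 genes). The Pearson correlation of log2 CPM across 14644 genes was 0.961 and 0.965 between replicate 1 and replicates 2 and 3, and 0.988 between the latter. Genes are not independent replicates, and these values only describe the libraries. Without replicate 1, 11649 genes were above the floor and 1615 reached 100 TPM.

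The markers of the sorted population were read in every library. Cd8a, the coreceptor chain used in the sort (chr6:71373427-71379173, GRCm38), measured 1951, 1505 and 1493 CPM. Cd3e, a signalling subunit of the receptor (chr9:44998740-45009627), measured 998, 1253 and 1177 CPM. Gzmb, encoding the protease granzyme B (chr14:56258838-56262260), measured 3424, 3378 and 3079.7 CPM. All 3 lay far above the floor, and their highest and lowest libraries differed by 1.31, 1.26 and 1.11 times. Pdcd1, which encodes PD-1 (chr1:94038305-94052553), measured 624, 707 and 782 CPM. Havcr2, which encodes TIM-3 (chr11:46454935-46481255), measured 149, 133 and 203 CPM. Ranked by TPM among genes with a length, Gzmb stood at 25, Cd3e at 103, Cd8a at 145, Pdcd1 at 224 and Havcr2 at 1345.

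**Figure D1:**
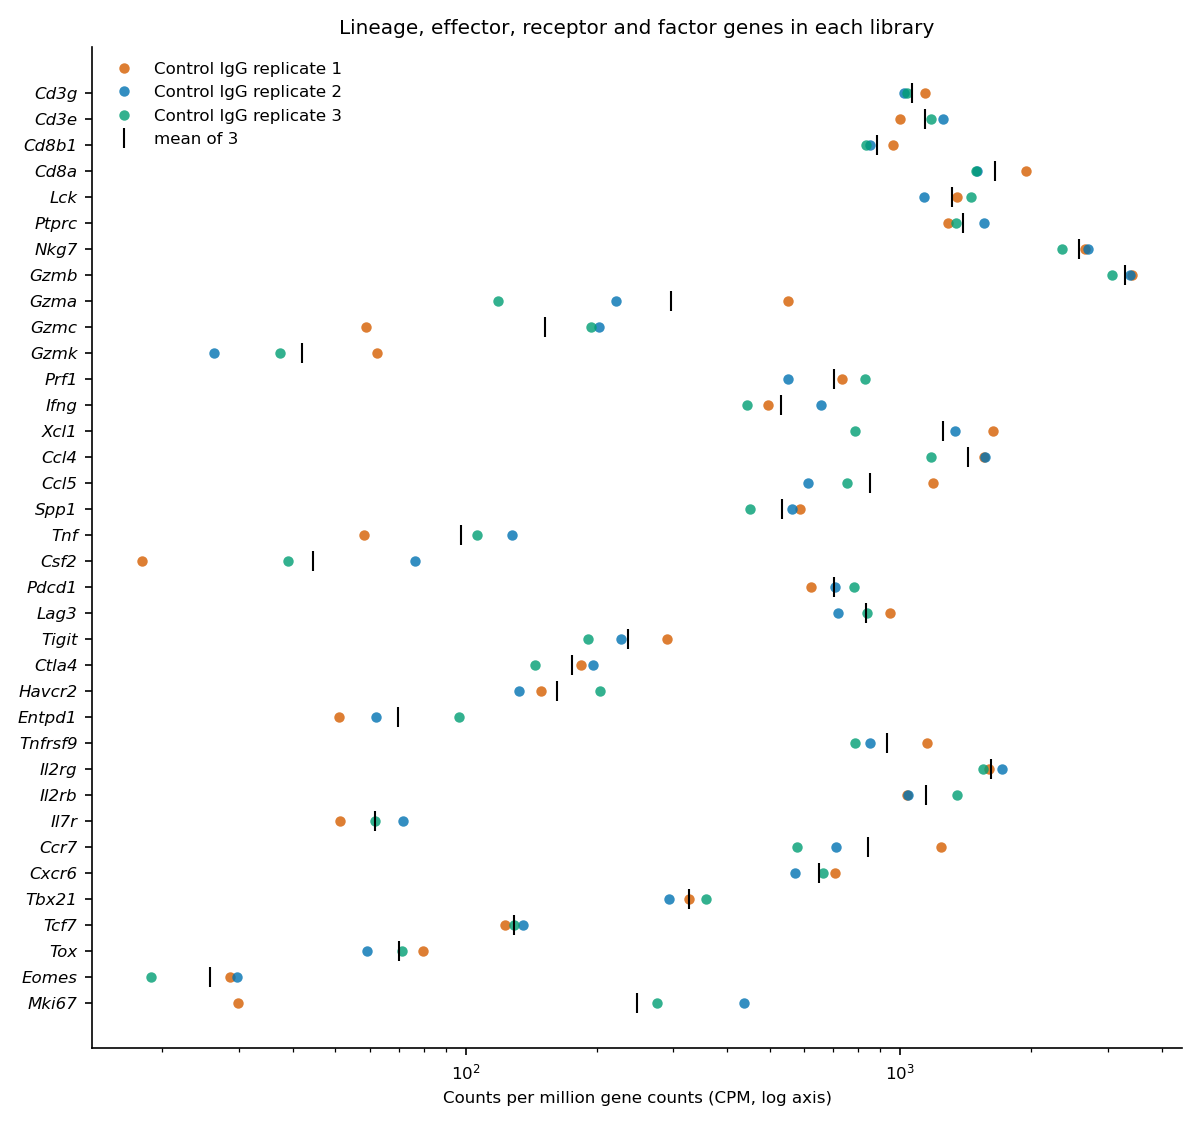
CPM of lineage, effector, receptor and factor genes in the 3 Control IgG libraries (points, log axis), with the mean of the 3 as a bar. Gzmb sits between 3079.7 and 3424 CPM in every library, whereas Mki67 spans 29.9 to 438 CPM with replicate 1 lowest.

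The top of the transcriptome belonged to the cytoskeleton, translation and antigen presentation. Actb, encoding cytoplasmic actin, had the highest level at 24559 ± 1896 TPM (SD, n = 3), followed by the elongation factor gene Eef1a1 at 15226 ± 1493 and B2m, the light chain of class I molecules, at 11822 ± 614. Among the 10 genes of highest TPM were also Actg1, another actin (6486), and 6 ribosomal protein genes. Those 6 were Rplp0 (9175), Rpl13 (7910.2), Rps6 (6621), Rps18 (6391), Rpl4 (6050.0) and Rps2 (5759). Nkg7, a granule membrane protein of killer cells, followed at rank 11 with 5744 ± 364 TPM. Rn45s, the ribosomal RNA precursor, has no length in the annotation and took 3.0%, 3.53% and 3.17% of the counts, a gene chosen after its value was seen.

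Cytosolic ribosomal protein genes, which supply the protein part of the ribosome, formed the list of highest level. Of its 76 listed members, 72 reached 100 TPM, against 6.88% of all genes, and the median was 2157 TPM. They took 11.5, 10.2 and 9.58% of the counts, with replicate 1 highest, and replicate 1 was the highest library for 60 of the 73 members at 10 CPM or more, against 29.8% of all such genes. None of the 73 differed 2-fold between the highest and lowest library, against 21.7% of all genes at 10 CPM or more. A few members read very low: Rpl26 had a single count in all, and Rpl30 measured 3.15, 4.51 and 3.90 CPM. Both have near-identical processed copies in the genome and the counter for reads mapping to several places was 0 in every library, so these values are uncertain.

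Messenger RNAs of ribosomal proteins are known for a pyrimidine tract at their start, through which nutrient signalling controls their translation. Since these genes lead the transcriptome, the RefSeq promoters (GRCm38.p6) of the 56 that matched were searched for CTTTC within 25 bases on either side of the annotated start. The letters occurred on the coding strand in 19, 33.9%, against 7.87% of all 27025 promoters in the table. On the other strand the shares were 7.14% and 7.07%. The longer CTCTTT, which can overlap CTTTC, occurred on the coding strand in 17.9% against 2.25% and on the other strand in 0% against 2.12%. Among the 39 other genes of the top 100 by TPM with a promoter, CTTTC on the coding strand occurred in 10.3%. A match in these windows is a description and not a measured site. The windows of 15 bases before and 15 bases from the start are printed for 4 ribosomal protein genes, with CTTTC in capitals, to show where the letters lie. These were the 4 of highest TPM that hold the letters there, with the promoters of a single chromosome passed over. A gene of higher TPM on that chromosome could not be chosen. The other 37 of the 56 did not hold them on the coding strand of the searched window. They lie at chr8:123102335-123102364 (+), chr2:26910792-26910821 (+), chr19:6057932-6057961 (+) and chr7:45128731-45128760 (-), in the order printed.
Rpl13: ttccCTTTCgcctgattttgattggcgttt
Rpl7a: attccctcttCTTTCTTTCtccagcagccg
Fau: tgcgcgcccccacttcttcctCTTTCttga
Rpl13a: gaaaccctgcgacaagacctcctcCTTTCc
Counted from 1 at the first transcribed base and from -1 before it, CTTTC began at -11 in Rpl13, -5 and, overlapping it, -1 in Rpl7a, 7 in Fau and 10 in Rpl13a.

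**Figure D2:**
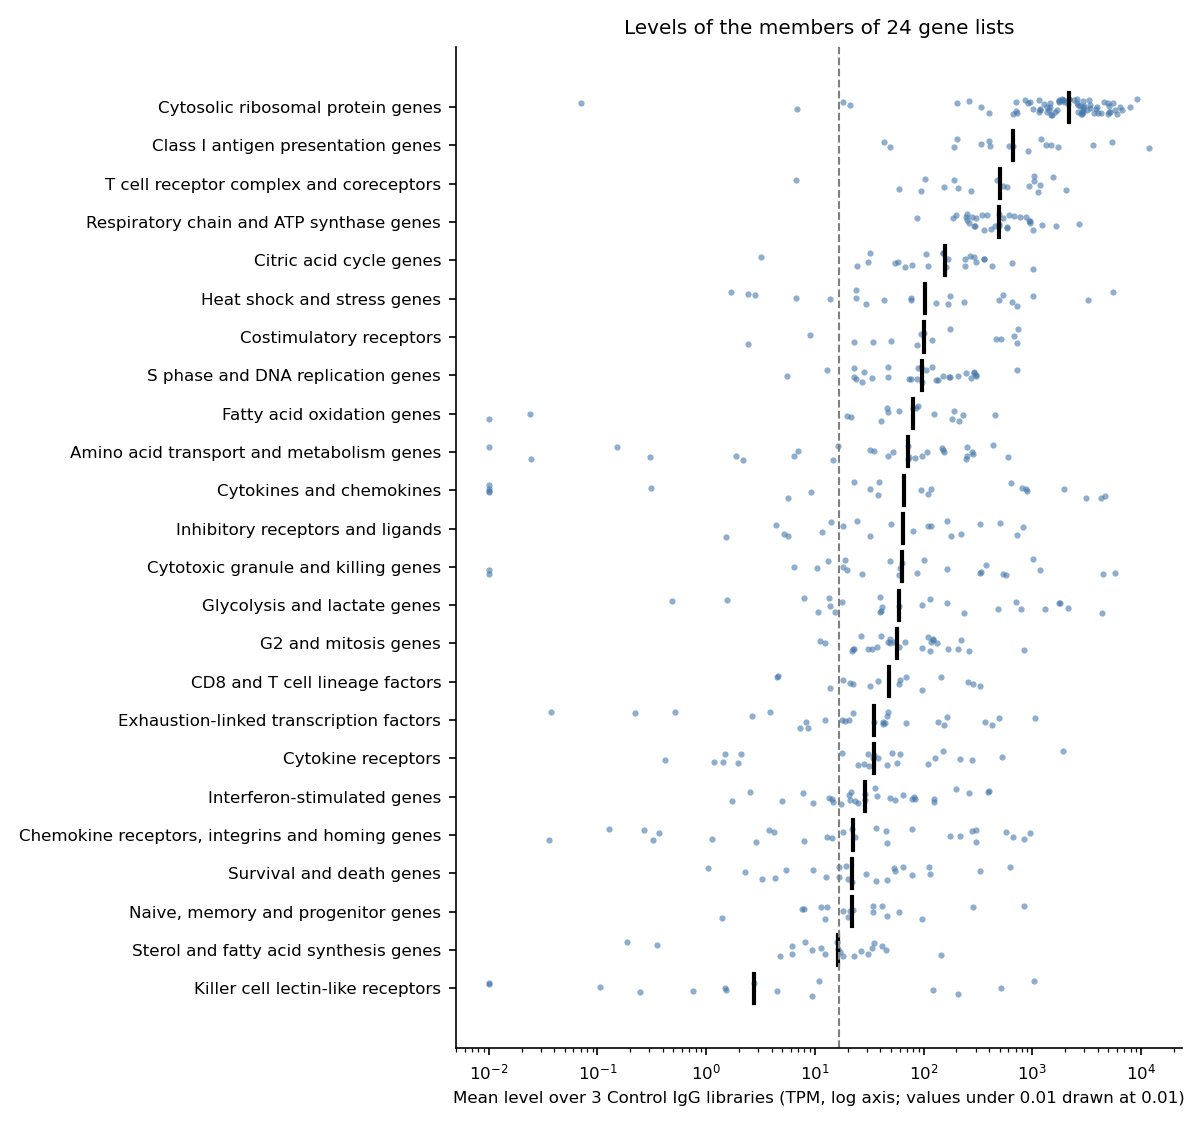
Mean TPM over the 3 libraries (log axis) of each member of 24 gene lists, with the list median as a black bar and the median of all genes above the floor, 16.6 TPM, as a dashed line. Ribosomal protein genes have a median of 2157 TPM and killer cell lectin-like receptors one of 2.77 TPM.

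The matched genes of the T cell receptor complex were read throughout. Of 21 symbols in the list 18 were matched, and those without a match were receptor chain genes, whose levels could not be read. All 18 matched members were above the floor, against 45.2% of all genes, and 15 reached 100 TPM, against 6.88%. The list median was 503 TPM. The constant region genes of the receptor itself were not analysed here. Cd3g, another CD3 subunit, was highest at 2046 ± 51.9 TPM, ahead of Cd3e at 1542 ± 227 and Cd3d at 1028 ± 70.2. The coreceptor genes Cd8b1 and Cd8a stood at 1171 ± 44.1 and 1032 ± 120.4 TPM, with Cd8b1 above Cd8a in all 3 libraries by less than their SDs combined on average. Lck, the kinase bound to the coreceptor, had 1115 ± 148 TPM, and Zap70, the kinase recruited to the CD3 subunits, 468 ± 54.2 TPM. Lowest was Grap2, an adaptor, at 6.76 ± 1.71 TPM. Ptprc, which encodes CD45 and whose allele was used in the sort, measured 1289, 1555 and 1345 CPM.

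All 16 lineage factors were above the floor, against 45.2% of all genes, and 4 reached 100 TPM, against 6.88%. Id2, a repressor of E proteins in effector cells, was highest at 333 ± 13.4 TPM, followed by Stat4, which conveys IL-12 signals (287 ± 48.0), Tbx21, which encodes T-bet (258 ± 29.3), and Ets1 (144 ± 34.2). Eomes, the T-box relative of T-bet, measured only 13.6 ± 2.94 TPM. In CPM, Tbx21 measured 327, 294 and 357 and Eomes 28.6, 29.6 and 18.8, and replicate 3 was the highest library for the former and the lowest for the latter. Runx3, the factor that silences Cd4 in CD8 cells, measured 52.6, 77.6 and 73.6 CPM. Zeb2 and Runx1 were the lowest of the list at 4.47 ± 1.49 and 4.56 ± 0.565 TPM. No member differed 2-fold, against 21.7% of all genes at 10 CPM or more.

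Killing genes split between a few very abundant ones and many low ones. Nkg7 and Gzmb stood at 5744 and 4508 ± 173 TPM, and Ctsw, a granule protease, at 1177 ± 213 TPM. Srgn, the proteoglycan that packs granzymes, had 1011 ± 262 TPM and Prf1, encoding perforin, 536 ± 112 TPM. Among the 25 listed members, 11 reached 100 TPM, against 6.88% of all genes. At 0 counts in every library were 2 members, Gzmg and Gzmn, against 37.2% of all genes.
Several other granzymes varied between libraries. Gzma measured 550.0, 221 and 118 CPM, a 4.65-fold range with replicate 1 highest and no other library within 2-fold of it. Gzmc ran the other way, at 58.7, 203 and 194 CPM with replicate 1 lowest. Gzmk, a granzyme often found in less differentiated cells, measured 62.4, 26.2 and 37.3 CPM, again with replicate 1 highest. Gzmd, Gzme and Gzmf stayed at or below 14.4 CPM in all libraries, although the Gzmc to Gzmg cluster holds similar sequences whose reads may be shared. Serpinb9, which encodes an inhibitor that protects killer cells from granzyme B, measured 816, 647 and 559 CPM. Fasl, the death ligand, measured 101, 80.9 and 78.2 CPM. The secretion genes Unc13d, Rab27a, Stx11 and Stxbp2 lay between 27.0 and 100.5 TPM.

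Chemokine genes led the cytokine list. All 7 chemokine genes were above the floor, against 45.2% of all genes, and 5 reached 100 TPM, against 6.88%. Xcl1, a chemokine for cross-presenting dendritic cells, stood at 4676 ± 1454 TPM. Ccl4 followed at 4266 ± 581, Ccl5 at 3128 ± 981, Ccl3 at 1936 ± 312 and Ccl1 at 811 ± 158. The last 4 of these attract T cells or myeloid cells. Xcl1 measured 1634, 1336 and 789 CPM and Ccl5 1192, 613 and 754 CPM. Replicate 1 was the highest library for both, with replicate 3 lowest for Xcl1 and replicate 2 lowest for Ccl5.
Ifng, the main cytokine of CD8 effector cells, measured 496, 655 and 444 CPM, which is 867 ± 187 TPM at rank 177. Ltb, encoding a lymphotoxin chain, stood at 886 ± 71.3 TPM, and Spp1, encoding osteopontin, at 636 ± 71.1 TPM. Tnf was lower at 118 ± 45.7 TPM. Csf2, which encodes GM-CSF, measured 17.9, 76.2 and 39.0 CPM, replicate 1 being lowest and replicate 2 highest. Il2, the growth factor of activated T cells, measured 10.7, 29.4 and 15.5 CPM, in the same order. Il4, Il5, Il13 and Il17a, cytokines of helper subsets, had no count in any library, which allows up to 0.242, 0.300 and 0.244 CPM.

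Of 20 listed inhibitory receptors, ligands and ectoenzymes, all were above the floor, against 45.2% of all genes, and 9 reached 100 TPM, against 6.88%. Lag3 and Pdcd1 led the list at 818 ± 90.0 and 720.4 ± 108 TPM. Their order differed between libraries, since the TPM values were 888, 716 and 848 for Lag3 and 608, 731 and 822 for Pdcd1, with Pdcd1 above Lag3 in replicate 2. Tigit stood at 503 ± 85.9 TPM, Cd160 at 327 ± 66.7 and Cd96 at 223 ± 12.7. Both Tigit and Cd96 encode receptors for CD155. Ctla4 measured 178 ± 25.5 TPM and Havcr2 117 ± 29.9 TPM, less than Pdcd1 in every library. The ectoenzyme gene Entpd1, encoding CD39, a marker of tumor-reactive exhausted cells, measured 50.9, 62.2 and 96.6 CPM.
Lowest in the list were Lair1 and Cd200r1, at 1.53 ± 0.852 and 4.42 ± 3.65 TPM. Cd244, which encodes 2B4, had the widest range at 9.92, 22.1 and 47.4 CPM, with replicate 1 lowest and replicate 3 highest. Klrg1, a receptor of terminal effector cells, measured 6.45, 3.50 and 2.52 CPM. The PD-1 ligand genes Cd274 and Pdcd1lg2 measured 32.4, 52.1 and 48.1 CPM and, for the second, 87.9, 82.0 and 68.8 CPM. Both ligands are also made by myeloid and tumor cells, whose markers are given below, and their part in these values was not tested.

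Costimulatory receptors had a list median of 102 TPM. Tnfrsf9, encoding 4-1BB, a receptor induced by antigen, stood at 732 ± 122 TPM, Tnfrsf18, encoding GITR, at 720.0 ± 106, Cd48 at 677 ± 91.0, Tnfrsf4, encoding OX40, at 515 ± 96.0 and Cd27 at 459 ± 4.12. The first 3 lay within their SDs of each other. Cd28, the receptor engaged during the culture, measured 429, 383 and 343 CPM. Replicate 1 was the highest library for 8 of the 13 members at 10 CPM or more, against 29.8% of all such genes. Tnfrsf25 and Tnfrsf14 were lowest at 2.40 ± 1.91 and 9.04 ± 4.09 TPM. Cd40lg, a ligand typical of helper cells, measured 21.9, 13.5 and 9.09 CPM.

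Among 25 cytokine receptor genes, all above the floor against 45.2% of all genes, the chains shared by IL-2 and IL-15 led. Il2rg, the common gamma chain, stood at 1909.8 ± 123 TPM, Il2rb at 526 ± 99.1 and Ifngr1 at 279.8 ± 43.7. Il2ra, the high-affinity IL-2 chain, measured 74.3, 94.5 and 73.0 CPM and Il7r 51.4, 71.8 and 61.6 CPM, or 30.5 ± 5.03 and 34.4 ± 6.64 TPM. The other interferon-gamma receptor chain, Ifngr2, measured only 4.36, 2.30 and 1.46 CPM, so the chains of a single receptor differed in level by TPM 279.8 against 1.42. Tgfbr2 measured 91.4, 125 and 138 CPM and its partner Tgfbr1 3.47, 6.71 and 4.38 CPM. The lowest members were Tgfbr3 at 0.414 ± 0.358 TPM and Il6ra at 1.19 ± 0.674 TPM. Il12rb2, the inducible IL-12 receptor chain, measured 39.0, 31.5 and 71.4 CPM with replicate 3 highest.

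Homing genes showed high Cxcr6 and Ccr7 and little of the tissue-specific receptors. Selplg, the selectin ligand PSGL-1, led with 955 ± 133 TPM. Ccr7, the receptor that guides cells to lymph nodes, measured 1243, 713 and 577 CPM, with replicate 1 highest by 2.15 times over replicate 3. Cxcr6, a receptor of tissue-resident cells, measured 707, 573 and 665 CPM and Cxcr3, which follows interferon-induced chemokines, 234, 281 and 279 CPM. Ccr9 and Ccr10, receptors for gut and skin chemokines, had at most 0.325 CPM in any library. Itgae, encoding the resident-cell integrin CD103, measured 1.37, 0.401 and 4.79 CPM. The egress receptor gene S1pr1 measured 36.6, 22.7 and 24.8 CPM and its regulator Klf2 16.5, 10.3 and 10.1 CPM. Cd69, which opposes egress, measured 365, 221 and 197 CPM.

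Lectin-like receptors gave the lowest list median, 2.77 TPM over all members and 10.2 TPM over those above the floor, yet held 4 abundant genes. Klrd1, encoding CD94, stood at 1036 ± 68.7 TPM, Klrk1, encoding NKG2D, at 512 ± 67.1, Klrc1, encoding NKG2A, at 209 ± 27.6 and Klre1 at 122 ± 35.4. The Ly49 genes Klra4 and Klra8 had no count, and Klra1, Klra5, Klra7 and Klra9 stayed at or below 1.06 CPM in every library. Only Klra3 among the Ly49 genes listed exceeded that, at 4.03, 6.51 and 7.22 CPM. Ly49 genes resemble each other closely, so their separate values are uncertain.

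Factors linked to exhaustion were read at moderate levels, with a list median of 34.7 TPM over 27 members. Junb, an AP-1 subunit, led at 1061 ± 300.1 TPM. Nr4a1, an early gene of receptor signalling, measured 874, 612 and 561 CPM with replicate 1 highest, and Bhlhe40 783, 581 and 693 CPM. Tox measured 79.6, 59.1 and 71.1 CPM, which is 34.7 ± 4.29 TPM at rank 3510. Its relative Tox2 reached at most 1.77 CPM. Vdr and Maf were near 0 at 0.0377 ± 0.0653 and 0.219 ± 0.175 TPM. Fosb had the widest range, 10.9, 56.8 and 50.2 CPM, and Fosl2 measured 10.6, 47.5 and 27.3 CPM. Replicate 1 was lowest for both, while for Fos, another AP-1 gene, at 507, 330.5 and 346 CPM it was highest.

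Genes of naive, memory and progenitor cells had a median of 21.7 TPM. Tcf7 measured 123, 135 and 129 CPM, a 1.10-fold range, and stood at 96.9 ± 7.82 TPM and rank 1615. In TPM it exceeded Tox in every library, at 88.0, 103 and 99.8 against 37.8, 29.8 and 36.4. Ccr7 and Dapl1, a gene of naive and memory CD8 cells, were the only members at 100 TPM or more, with 831 and 285 ± 36.1 TPM. Klf3 and Foxo1 were lowest at 1.39 ± 0.820 and 7.60 ± 2.76 TPM. Id3 measured 19.3, 52.6 and 43.2 CPM and Cxcr5, a marker of follicular and progenitor-like cells, 4.28, 11.9 and 18.5 CPM, both with replicate 1 lowest.

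Glycolysis genes ranged from among the most abundant of the cell to near absent, according to isoform. Ldha, which makes lactate, measured 4516, 4099.8 and 3996 CPM and stood at 4358 ± 107 TPM and rank 26. Its sister Ldhb measured 4.03, 17.8 and 5.44 CPM, or 13.8 ± 11.7 TPM. Aldoa stood at 2149 ± 314 TPM and Tpi1 at 1795 ± 259.8. Hk3 and Eno2, isoforms of other tissues, were lowest at 1.55 ± 0.491 and 0.485 ± 0.448 TPM. Pfkfb3, which makes the allosteric activator of phosphofructokinase, measured 10.2, 35.2 and 42.5 CPM, and Slc2a3, a glucose transporter, 53.8, 116 and 185 CPM. Replicate 1 was the lowest library for both and for 12 of the 22 members at 10 CPM or more, a share close to the 52.3% of all such genes. Gapdh, at 289.8, 423 and 384 CPM, and Eno1, at 49.0, 50.1 and 56.1 CPM, have many processed copies and their values are uncertain.

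Nuclear genes of the mitochondrial machinery were high throughout. Of 33 respiratory chain and ATP synthase members, 32 reached 100 TPM, against 6.88% of all genes, and the median was 495 TPM. None differed 2-fold between libraries, against 21.7% of all genes at 10 CPM or more. Atp5b, the catalytic subunit of ATP synthase, led with 2708 ± 125 TPM, followed by the cytochrome oxidase subunits Cox4i1 at 1666 ± 64.4 and Cox8a at 1226 ± 44.5. Ndufs1, a complex I subunit, was lowest at 86.9 ± 11.8 TPM. Replicate 1 was the highest library for 28 of the 33, against 29.8% of all genes. Their median exon length was 1291 bases. Relative to genes of the same length bin, the median log2 ratio of replicate 1 to the others was 0.19, against 0.24 without that step. Genes encoded in mitochondrial DNA were not analysed here.
The citric acid cycle list had 16 of 24 members at 100 TPM or more, against 6.88% of all genes, and a median of 157 TPM. Mdh2 led with 1004 ± 57.3 TPM and Sdhb followed at 644 ± 21.8. The cytosolic Idh1 was lowest at 3.16 ± 0.777 TPM. Acly, which turns citrate into acetyl-CoA, was the only member to differ 2-fold, against 21.7% of all genes at 10 CPM or more. Acly measured 77.1, 111 and 213 CPM with replicate 3 highest.

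In fatty acid oxidation, Cpt1a, the entry step of the carnitine shuttle, was the only Cpt1 gene above the floor, at 23.6, 46.3 and 68.3 CPM. The muscle form Cpt1b had no count and Cpt1c at most 0.10 CPM. The electron transfer gene Etfb led at 456 ± 17.3 TPM, ahead of Etfa at 228 ± 28.6 and Acadl at 211 ± 22.7. Sterol and fatty acid synthesis genes had a median of 16.5 TPM, close to the 16.6 TPM of all genes above the floor. Fdps, in the mevalonate pathway, was the only member past 100 TPM, at 146 ± 20.0. The desaturase gene Scd1 measured 0, 0.701 and 0.649 CPM and Fads2 0, 0.601 and 1.06 CPM. The median TPM of the list was 11.02, 15.6 and 19.1, with replicate 1 lowest.

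The amino acid list had a median of 71.7 TPM. Phgdh, which commits glucose carbon to serine, led with 601 ± 56.6 TPM, and Shmt2 measured 332, 322 and 323 CPM and Psat1 223, 243 and 208 CPM with little spread. Srm, for spermidine, stood at 434 ± 44.0 TPM and the glutamine transporter Slc1a5 at 283 ± 92.2 TPM. Odc1, the first enzyme of polyamine synthesis, had the widest range, 293, 376 and 183 CPM with replicate 3 lowest. Slc7a5, the leucine transporter of activated T cells, measured 25.4, 33.0 and 20.1 CPM and its heavy chain Slc3a2 393, 355 and 386 CPM. Ido1 had no count, and Slc7a11, the cystine transporter, at most 0.20 CPM.

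Cell cycle genes were read in every library. All 31 S phase members and all 28 G2 and mitosis members were above the floor, against 45.2% of all genes. The list medians were 97.1 and 56.5 TPM. Pcna, the replication clamp, measured 549, 595 and 527 CPM, and the helicase genes Mcm6 and Mcm7 stood at 300.1 ± 49.5 and 300.2 ± 62.3 TPM. Ccne2, a G1/S cyclin, was lowest of its list at 5.48 ± 0.159 TPM.
Mki67, which coats mitotic chromosomes and marks dividing cells, measured 29.9, 438 and 275 CPM, a 14.6-fold range with replicate 1 lowest. Of the shorter mitotic genes, Ccnb2 measured 161, 173 and 175 CPM, Cenpa 177, 248 and 231 CPM and Hmgb2 1218, 1057 and 1102 CPM. In these replicate 1 lay much closer to the other libraries than in Mki67, and Hmgb2 was the only list member with replicate 1 highest. The merged exon length was 10061 bases for Mki67 against 1531 for Ccnb2 and 1641 for Cenpa. For Mki67 the log2 ratio of replicate 1 to the others was -3.57. Over the 504 genes of more than 8 kb its median was -0.79 and its lower quartile -1.27. The part of length in the range of Mki67 was not tested. Cenpf, also long, measured 27.9, 82.6 and 77.0 CPM, and Cenpe 33.9, 137 and 95.1 CPM. Replicate 1 was lowest for 23 of the 28 G2 and mitosis members, and for 8 of the 30 S phase members at 10 CPM or more, against 52.3% of all such genes. The median TPM of the G2 and mitosis list was 42.4, 73.9 and 72.3, lowest in replicate 1. Its median log2 ratio of replicate 1 to the others was -0.51, and -0.33 relative to genes of the same length bin. For its 10 cyclin and kinase members, of median exon length 2695.5 bases, these values were -0.47 and -0.37, with replicate 1 lowest for 8.

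Class I presentation had a list median of 669 TPM, and 15 of 17 members reached 100 TPM, against 6.88% of all genes. Besides B2m, the heavy chains H2-K1 and H2-D1 stood at 5448 ± 477 and 3574 ± 303 TPM, although these 2 share sequence that counting may split. The immunoproteasome genes Psme2, Psmb8 and Psme1 stood at 1739 ± 219, 1492 ± 13.8 and 1331 ± 63.9 TPM. Psmb8 measured 1282, 1214 and 1209.5 CPM, close in all libraries. Nlrc5, the class I transactivator, measured 59.9, 216 and 252 CPM with replicate 1 lowest.

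Interferon-stimulated genes were lower, with a median of 29.1 TPM, and 6 of 30 reached 100 TPM, against 6.88% of all genes. The value of 29.1 TPM is the median of the members' mean TPM, and the median taken within each library was 29.4, 34.3 and 36.1 TPM. Bst2 and Igtp were among the highest, at 399.9 ± 64.6 and 392 ± 60.8 TPM. Isg15, an early type I target, measured 30.3, 33.5 and 32.6 CPM and Ifit3 31.7, 32.3 and 30.0 CPM, nearly equal in all libraries. Mx1, a type I target, measured 0.323, 54.6 and 62.4 CPM, a 193-fold range, and Oas2 0, 6.01 and 4.30 CPM. Replicate 1 was lowest for both. The interferon-gamma target Iigp1 measured 76.6, 32.7 and 31.2 CPM and Tgtp1 49.0, 21.0 and 20.0 CPM, with replicate 1 highest. The 2-fold differences in this list, 8 of the 27 members at 10 CPM or more against 21.7% of all such genes, did not run in a single direction. Among the 18 type I members at 10 CPM or more, replicate 1 was lowest in 15, against 52.3% of all such genes, and highest in 0. Their median log2 ratio of replicate 1 to the others was -0.57, and -0.52 relative to genes of the same length bin. In the 9 interferon-gamma members replicate 1 was highest in 7, against 29.8%, and lowest in 1, with 0.47 and 0.68.

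Survival genes were led by Bcl2a1b, a Bcl2 relative induced by receptor signals, at 629 ± 116 TPM, although Bcl2a1 copies share sequence. Bcl2 measured 85.5, 109 and 86.0 CPM, Bcl2l11, encoding the death effector BIM, 164, 203 and 206 CPM, and Bax 139, 157 and 138 CPM. Fas had the widest range, 56.2, 20.1 and 24.3 CPM, with replicate 1 highest. Casp9 was low at 1.45, 6.51 and 5.36 CPM, as was Bmf at 3.07, 2.00 and 2.68 CPM.
Chaperones were abundant. Hspa8, the constitutive HSP70 form, stood at 5503 ± 1145 TPM and rank 13, Hsp90ab1 at 3242 ± 649.9 and Hsp90aa1 at 1021 ± 118. The heat-induced forms Hspa1a and Hspa1b are a near-identical pair, and measured 34.0, 37.2 and 35.6 CPM and, for the second, 3.39, 4.51 and 4.06 CPM. Hmox1, induced by heme and oxidative stress, had the widest range, 36.3, 14.8 and 7.63 CPM with replicate 1 highest. Trib3 and Gadd45a were lowest at 2.43 ± 0.577 and 1.68 ± 0.670 TPM.

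Genes of other cell types were searched by 15 marker lists. Cd4 had counts in replicate 3 only, at 1.30 CPM, and S100a8, Cdh5, Col3a1, Dcn and Zbtb16, defining genes of other lineages, had none. Other markers did have counts. Cxcr2, of the neutrophil list, measured 1.94, 10.7 and 6.01 CPM, and Egfl7, of the endothelial list, 3.39, 8.01 and 5.93 CPM. Col1a1, of the fibroblast list, had counts in every library and reached at most 1.69 CPM. No count in any library was found for 5 of 7 neutrophil, 5 of 8 endothelial and 4 of 8 fibroblast markers. Of the melanoma markers, 11 of 11 listed, 5 were above the floor in every library, against 45.2% of all genes. Melanoma markers summed to 7.10, 399 and 125 CPM. Pmel, a melanosome protein, measured 1.29, 112 and 40.0 CPM and Gpnmb, also made by macrophages, 2.90, 70.5 and 20.7 CPM. Replicate 2 was highest and replicate 1 near the floor for the melanocyte enzymes Dct (0.484, 80.7 and 18.7 CPM) and Tyrp1 (0, 68.8 and 23.6 CPM).
Macrophage and monocyte markers summed to 232, 201 and 98.9 CPM, with Lyz2 at 50.6, 47.3 and 25.8 and Apoe at 30.6, 59.3 and 15.9 CPM, and Csf1r, the defining receptor, at 4.44, 3.20 and 2.68 CPM. Dendritic cell markers summed to 432, 178 and 227 CPM, mostly from class II genes and Cd74. Cd74, the chaperone of class II molecules, measured 119, 61.6 and 71.0 CPM and H2-Ab1 120.3, 38.5 and 49.1 CPM, with replicate 1 highest for both. Flt3, Clec9a, Cd209a and Siglech, defining genes of dendritic subsets, reached at most 1.70 CPM in any library. Of the 11 listed dendritic cell markers, 7 were above the floor in every library, against 45.2% of all genes. A mean of 10 CPM or more was reached by 5, which are not all class II genes or Cd74.
Natural killer markers summed to 70.7, 66.5 and 74.3 CPM, and 4 of the 8 were above the floor in every library, against 45.2% of all genes. Klri2 measured 33.9, 34.0 and 43.2 CPM and Fcer1g 20.5, 23.4 and 19.4 CPM, while Ncr1 reached no more than 0.161 CPM. The helper and regulatory list summed to 68.3, 95.6 and 61.0 CPM, most of it from Folr4, at 40.7, 69.8 and 43.5 CPM, and held Foxp3 at 2.74, 6.51 and 2.52 CPM. Endothelial markers summed to 45.7, 47.4 and 63.6 CPM, of which Pecam1, also a T cell gene, gave 42.3, 39.2 and 57.6 CPM. Of 14 genes of unrelated tissues 10 had no count, against 37.2% of all genes. Mbp, whose locus also yields lymphocyte transcripts, gave 51.1, 95.4 and 72.5 CPM. The neutrophil, B cell, gamma-delta, mast cell, erythroid, platelet, fibroblast and keratinocyte lists each summed to at most 11.6 CPM in any library. Only 4 of the 7 gamma-delta symbols were matched. The receptor chain genes Trdc, Tcrg-C1 and Tcrg-C2 were not, so that sum does not cover them. The part of these other cells in the T cell values was not tested.

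**Figure D3:**
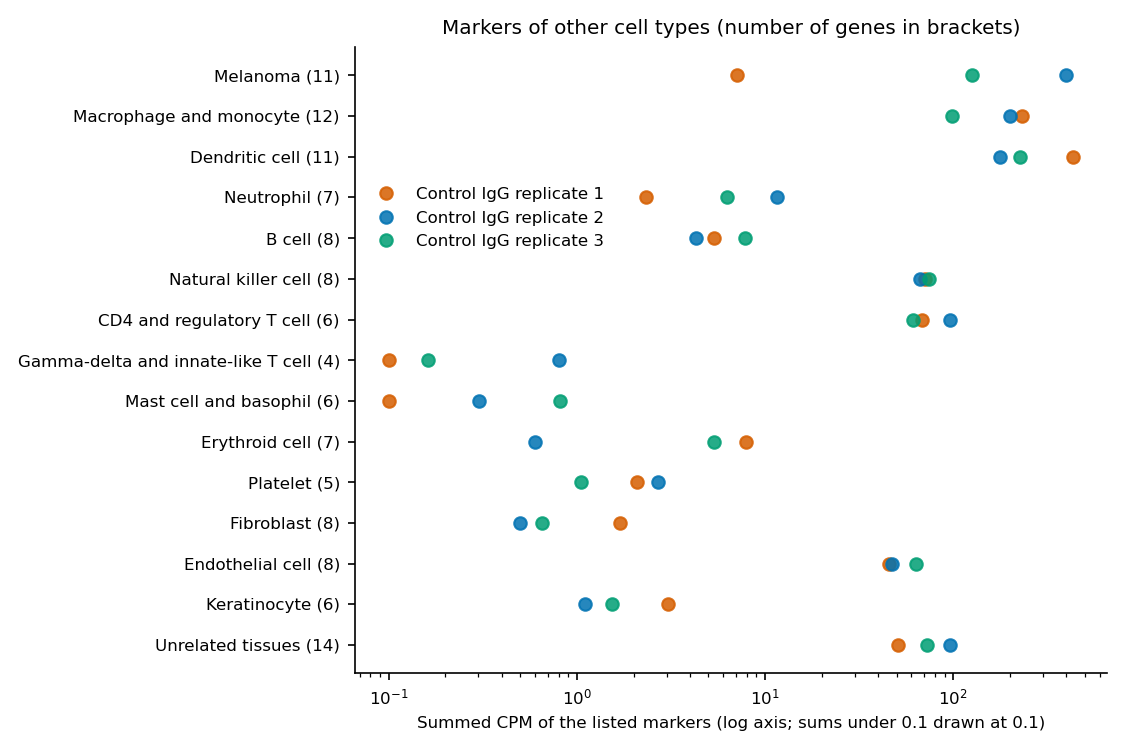
Summed CPM of the listed markers of 15 other cell types or tissues in each Control IgG library (log axis, number of listed genes in brackets). Melanoma markers span 7.10 to 399 CPM and dendritic cell markers 178 to 432 CPM, with the order of replicates 1 and 2 exchanged between them.

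Replicate 1 was the lowest library for most of the genes that varied. Of 7863 genes at a mean of 10 CPM or more, 1703, 21.7%, differed at least 2-fold between the highest and lowest library, and replicate 1 was the lowest library in 1549 of them. Without replicate 1, 117 of 8063 genes, 1.45%, did so. The biological coefficient of variation, edgeR's estimate of relative spread between libraries beyond counting error, was 31.4% over 9965 genes and 18.6% without replicate 1. Over all 7863 genes the median log2 ratio of a library's CPM to the mean of the other 2 was -0.18 for replicate 1, 0.05 for replicate 2 and 0.06 for replicate 3. TMM scaling, which balances the bulk of the genes, moved these medians to 0.01, -0.09 and 0.02.

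The ratio of replicate 1 to the others followed transcript length. In 362 genes with up to 1 kb of exon it had a median of 0.14 on the log2 scale, in 2392 genes of 3 to 5 kb -0.29, and in 504 genes over 8 kb -0.79. The longest and shortest bins thus differed by -0.93 in replicate 1, by 0.44 in replicate 2 and by 0.26 in replicate 3. Replicate 1 is part of the reference for replicates 2 and 3. A trend in replicate 1 alone would thus also give opposite trends in these, and their values are not separate observations. Reads outside genes were also fewest in replicate 1, at 9.02% of all reads in its table against 14.0% and 11.2%, and their part in this pattern was not tested.

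**Figure D4:**
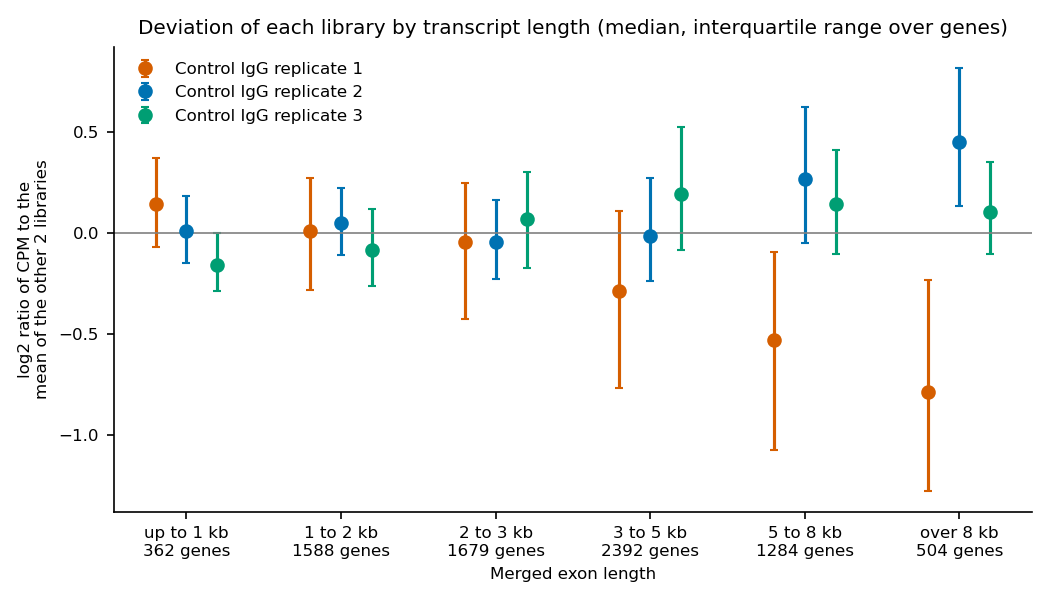
Median and interquartile range over genes of the log2 ratio of each library's CPM to the mean of the other 2, by merged exon length. Replicate 1 goes from 0.14 in the shortest to -0.79 in the longest genes, while replicate 2, whose reference includes replicate 1, goes from 0.01 to 0.45.

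Lists of short genes were among those highest in replicate 1. The median log2 ratio of replicate 1 was 0.28 for ribosomal protein genes and 0.24 for respiratory chain genes. It was -0.51 for G2 and mitosis genes, and -0.52 for sterol and fatty acid synthesis genes. Measured against all genes of the same length bin, the values became 0.19, 0.19, -0.33 and -0.10. Costimulatory receptors had the highest length-matched value, 0.38, and G2 and mitosis genes the lowest.

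**Figure D5:**
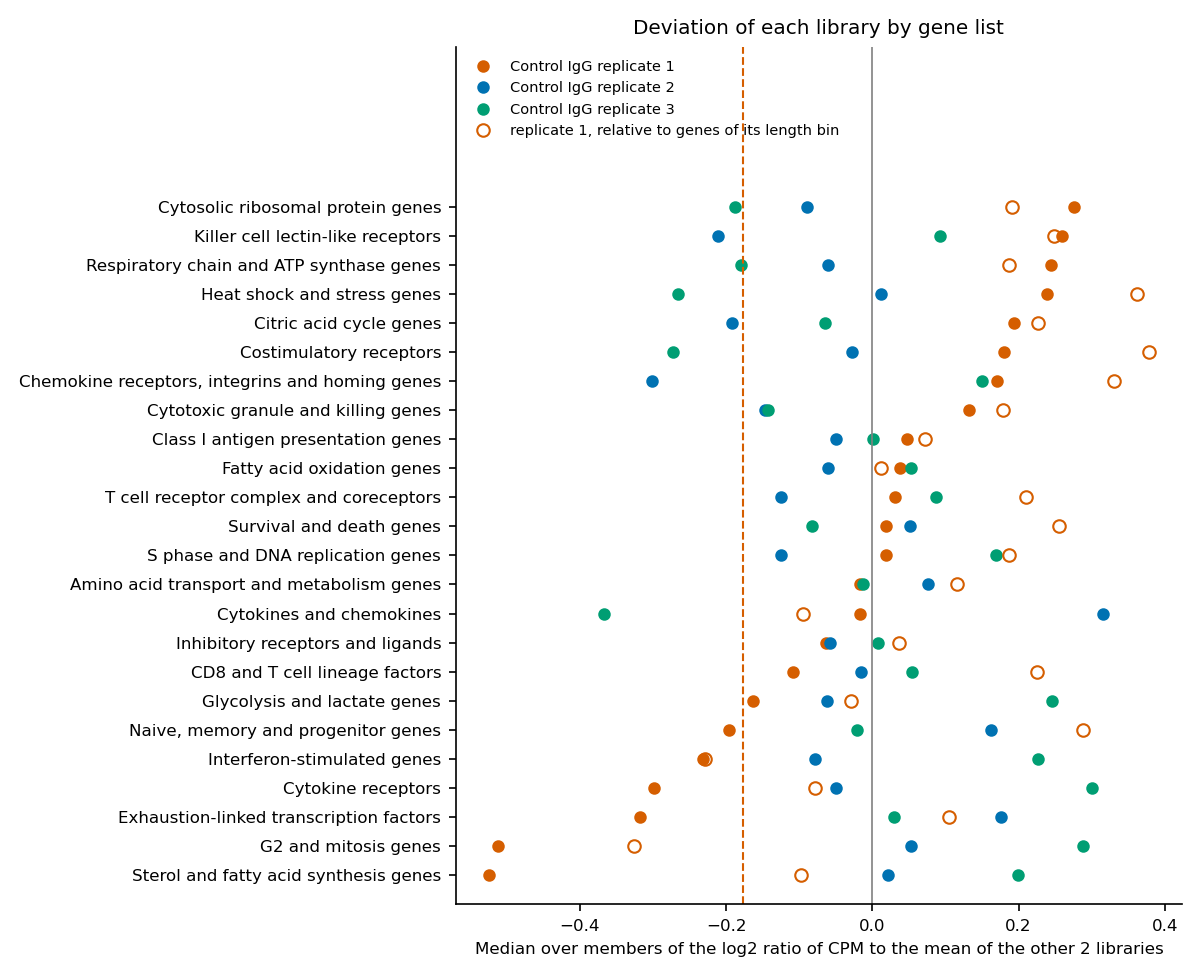
Median over the members of each list of the log2 ratio of a library's CPM to the mean of the other 2 (filled points), with replicate 1 also given relative to all genes of its length bin (open points) and the all-gene median of replicate 1, -0.18, as a dashed line. The open point for exhaustion-linked factors lies at 0.10 and the filled one at -0.32.

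The genes of widest range at a mean of 50 CPM or more were all lowest in replicate 1. After Pmel and Mki67 they were Pisd-ps1, a pseudogene, at 6.62, 74.6 and 82.2 CPM, Leng8 at 10.97, 85.3 and 99.4 CPM and Nisch at 14.7, 84.3 and 104 CPM. Then came Tyk2, a Janus kinase of interferon and IL-12 receptors, at 14.0, 58.0 and 94.3 CPM, Ankrd11 at 22.7, 152 and 101 CPM and Ogt, which adds the sugar GlcNAc to proteins, at 24.4, 154 and 118 CPM. Numa1, a spindle protein, measured 26.1, 143 and 131 CPM and Tecpr1 20.4, 62.6 and 111 CPM. Apart from Pmel and Pisd-ps1, these genes had merged exon lengths of 5106 to 10061 bases, against a median of 3197 over genes above the floor.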

How the data were processed

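Poly(A) RNA of sorted CD8+ CD45.1+ cells was sequenced. Each library's table, as deposited by the authors, holds raw whole-number counts of reads for each gene symbol. TopHat, HTSeq and the mouse build mm10 are named per the submitters' processing notes. No version, annotation, strand setting or rule for multi-mapping reads was given in those sources. The chemistry marks neither strand nor molecule, so overlapping or antisense genes are not told apart, PCR copies count as reads, and the floor of 3 counts covers counting error only.

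The 5 counter lines were left out of library totals; reads without a feature came to 9.02%, 14.0% and 11.2% of all reads in the tables of replicates 1, 2 and 3, and ambiguous reads to 1.40% to 1.51%. CPM used library totals. TPM used merged exon lengths of GENCODE vM21 (GRCm38), matched to 22838 of 23337 symbols, 1885 of them through older names; 3.32% to 3.99% of counts had no length. Ratios of a library to the mean of the others used genes at a mean of 10 CPM or more, with 0.1 CPM added. No 2 libraries were copies: the chi-square per degree of freedom was 19.2 to 61.1. The biological coefficient of variation came from edgeR 4.0.16 in R 4.3.3 (TMM, filterByExpr with a minimum count of 10), with size factors of DESeq2 1.42.0 as an alternative. Other steps used Python 3.11.15 with pandas 2.3.3, and the code was tested on simulated data.

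The 24 gene lists, 15 marker lists and the members were chosen with earlier results of these data known. Of 597 distinct list symbols 3 were not matched, and of 125 marker symbols 5. Named genes are the sort and state markers, the 10 of highest TPM, the 10 of widest range at a mean of 50 CPM or more, the 3 highest, 2 lowest and widest of each list, and the 2 highest of each marker list. Further members named to complete a family or role were chosen after their values were seen. Some of these genes are not reported here.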

Additional observations from a re-analysis of the deposited data

How the results depend on the processing

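No paired analysis was possible because a single group was described and no groups were compared. The CPM of named genes was recomputed in 372 values under other scalings and 558 values with a replicate left out. All stayed within the spread between libraries or within 1.5 times, as did the numbers of genes above the floor and at 100 TPM. For CPM this outcome was fixed in advance. Leaving out 1 of 3 libraries moves a mean by less than the SD between them, and the scalings differed too little for 1.5 times. The CPM values thus do not test robustness. Of 144 list medians of TPM recomputed over 24 lists, 24 moved by more than the spread between libraries. Of these, 3 moved by over 1.5 times, all when only members above the floor were kept: lectin-like receptors from 2.77 to 10.2 TPM, homing genes from 22.5 to 40.7 TPM and cytokines and chemokines from 66.2 to 117.9 TPM. The 2-fold count was 3636 at a minimum of 1 CPM and 372 at 50 CPM, and 117 to 1211 when a replicate was left out. The coefficient of variation was 18.6% to 36.9% when a replicate was left out. Without Rn45s, the 100 genes of highest count held 26.3% of the counts, against 28.6% with it. Relative to genes of the same length, chosen after seeing the data, the log2 ratio of replicate 1 changed sign for lineage factors (0.22), inhibitory receptors (0.036), exhaustion-linked factors (0.10), naive and memory genes (0.29) and amino acid genes (0.12). With TMM, also chosen later, it did so for lineage factors (0.083), cytokines (0.18), inhibitory receptors (0.12), glycolysis (0.028) and amino acid genes (0.18). TMM rescales each library as a whole, while the length-matched values use a different reference level for each length bin. Depth limits genes near 0.3 CPM, where a count of 0 cannot be told from a level below the floor.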

Other observations

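A set of 9 genes had at most 3 counts in replicate 1 and 10 CPM or more in both other libraries. Besides Tyrp1 it held Ankrd16 (0.0807, 19.4 and 20.1 CPM), Ankrd23 (0, 17.9 and 15.7 CPM), Tchp (0.0807, 14.6 and 11.3 CPM) and Fam116b (0.0807, 13.0 and 17.0 CPM). The others were 2010016I18Rik (0.242, 12.6 and 14.2 CPM), Cntrob (0, 11.8 and 12.5 CPM), Zfp408 (0, 10.7 and 10.9 CPM) and Dgkq (0, 10.0 and 15.8 CPM). These genes were chosen after their values were seen. No gene met the same condition in replicate 2 or replicate 3, and no gene was at 10 CPM or more in a single library and at the floor in both others.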
